A study of Homo sapiens with 12 samples.

Results

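The class I histone deacetylase genes HDAC1, HDAC2, HDAC3 and HDAC8 and the only class IV gene, HDAC11, were followed through a study of the histone deacetylase inhibitor ITF2357 (givinostat), a hydroxamate drug. The members were taken as a fixed list, chosen with earlier results of these data known. Each of the 5 had exactly 1 array row that carries its symbol alone, and none shared a row with another gene, so all 5 of 5 members were measured among 18417 genes. RNA came from HEL and UKE1, established human lines labelled as erythroleukemia cells, both with the JAK2V617F mutation that keeps the kinase JAK2 active without cytokine. The 4 groups were HEL without drug, HEL with 250 nM ITF2357, UKE1 without drug and UKE1 with 250 nM ITF2357, each after 6 h and each with 3 Affymetrix Gene ST arrays, 12 in all. HEL was grown with 10% fetal calf serum. UKE1 medium held 10% horse serum and 10 µM hydrocortisone besides, so line and medium cannot be told apart where the lines are compared. Each condition rests on 1 line of each name, and nothing beyond the word triplicates says how the cultures were kept apart, so each p-value sets a change against the scatter among these arrays alone, which may be technical.

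Histone deacetylases remove acetyl groups from lysines of histones and other proteins, the step that ITF2357 blocks by occupying the zinc-containing pocket of the enzyme. Class I enzymes mostly work in the nucleus. HDAC1 and HDAC2 are close paralogs that sit together in the SIN3, NuRD, CoREST and MiDAC corepressor complexes, and HDAC3 is the catalytic subunit of the NCoR complex. HDAC8 acts without such a complex and deacetylates the cohesin subunit SMC3, while HDAC11 is an efficient remover of long fatty acyl groups from lysine. In red cell and platelet precursors the blood transcription factors GATA1, TAL1 and GFI1B recruit class I complexes to their target genes. The arrays measured the RNA of these genes in whole cultures, not protein or enzyme activity, and fewer cells with a transcript and less of it per cell cannot be told apart.

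The windows just before the start sites are shown for the 3 genes whose RNA rose with ITF2357 in both lines and for HDAC8, which was lower with the drug in both. Each runs over the 250 bases before the RefSeq start (build GRCh38.p14), 5′ to 3′ on the gene's strand, with capitals for the GC box, the recognition motif of SP1-type factors (GGGCGG, or CCGCCC on the other strand; neighbouring copies can share a base).
HDAC3, chr5:141636850-141637099, strand -: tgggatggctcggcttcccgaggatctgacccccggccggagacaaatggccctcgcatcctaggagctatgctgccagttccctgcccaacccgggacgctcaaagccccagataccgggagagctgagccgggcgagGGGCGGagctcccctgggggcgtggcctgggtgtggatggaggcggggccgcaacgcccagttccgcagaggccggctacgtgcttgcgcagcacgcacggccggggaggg
HDAC11, chr3:13480056-13480305, strand +: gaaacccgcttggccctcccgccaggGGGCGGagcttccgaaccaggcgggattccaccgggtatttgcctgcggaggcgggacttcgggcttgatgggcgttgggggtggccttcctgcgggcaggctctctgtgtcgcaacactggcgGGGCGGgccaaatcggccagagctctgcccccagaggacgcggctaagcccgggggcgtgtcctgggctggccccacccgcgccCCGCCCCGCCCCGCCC
HDAC1, chr1:32291833-32292082, strand +: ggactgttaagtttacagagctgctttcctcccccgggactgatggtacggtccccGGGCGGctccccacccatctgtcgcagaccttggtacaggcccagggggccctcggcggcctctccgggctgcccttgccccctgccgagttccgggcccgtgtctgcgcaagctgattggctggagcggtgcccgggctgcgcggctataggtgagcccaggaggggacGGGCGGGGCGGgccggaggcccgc
HDAC8, chrX:72572844-72573093, strand -: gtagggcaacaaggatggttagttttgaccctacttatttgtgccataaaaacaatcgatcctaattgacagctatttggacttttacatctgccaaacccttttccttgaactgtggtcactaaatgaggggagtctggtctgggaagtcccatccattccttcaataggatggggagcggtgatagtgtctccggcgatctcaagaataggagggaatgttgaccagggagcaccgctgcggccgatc
HDAC11 held 5 GC boxes, 3 of them in an overlapping run that ends right at the start site, HDAC1 held 3, and HDAC3 held 1. HDAC8 and HDAC2 (not shown) held 0. Among 35116 RefSeq windows of the same length, 42.6% held at least 1 GC box and 13.9% held 3 or more. HDAC1 alone of the 5 had a CCAAT box (CCAAT or ATTGG), which 32% of all windows hold, and none of the 5 had a TATA box (TATAAA or TTTATA), held by 10.7%. The share of G and C was 73.6% in HDAC11, 71.6% in HDAC1, 70.8% in HDAC3 and 63.2% in HDAC2, all above the 58% median of all windows, and 48% in HDAC8. These matches describe the letters of the windows and are no evidence of binding.

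Values are the authors' log2 levels, and changes are log2 differences between group means from a limma fit over all 12 arrays. A gene is said to have risen, fallen or differed when its p, adjusted by Benjamini-Hochberg over the 18417 genes, was under 0.05. Levels of different genes are not compared, since probes differ in brightness. Arrays of a group correlated at r = 0.996 to 0.998 over the genes, with no array standing apart, and no pair of arrays in a group shared more than 16 identical values.

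HDAC3 and HDAC11 rose more than 2-fold with ITF2357 in both lines, HDAC1 rose by less, and HDAC8 fell. HDAC2 fell in UKE1, and in HEL it gave -0.13 and did not pass the test. In HEL 3 of 5 members rose and 1 fell, where 42.4% of all genes changed (22.6% rose and 19.9% fell). In UKE1 3 of 5 rose and 2 fell, where 44.3% of all genes changed (22% rose and 22.3% fell). In both lines the ranges of the arrays with and without drug lay apart for 5 of 5 members, as they did for 49% of all genes in HEL and 53.9% in UKE1. The median log2 change of the members was 0.44 in HEL and 0.25 in UKE1, against -0.013 and 0.011 over all genes tested.

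**Figure D1:**
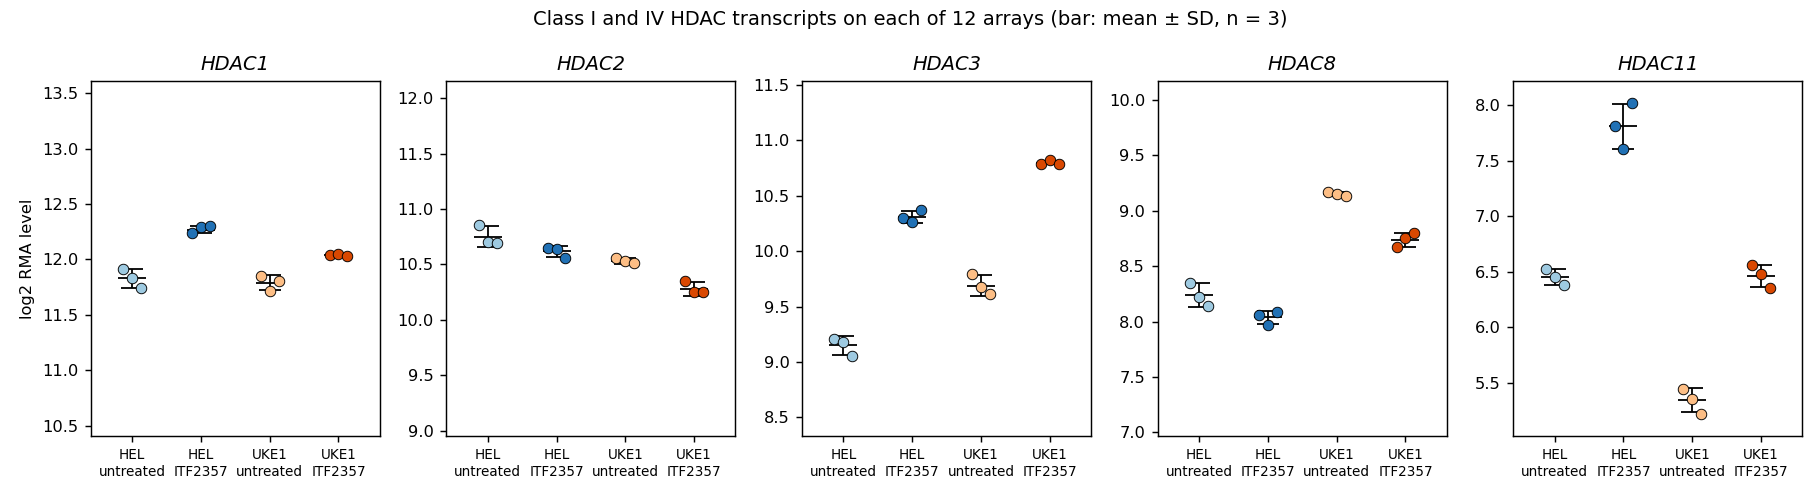
Log2 RMA level (y axis, each panel spanning the same number of log2 units) of each HDAC gene on every array, by group (x axis). Points are arrays and bars are mean ± SD of 3 arrays. HDAC3 and HDAC11 are higher on all treated arrays of a line than on all its untreated arrays, and treated UKE1 arrays reach the level of untreated HEL arrays for HDAC11.

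HDAC3, the deacetylase of the NCoR complex, read 9.21, 9.18 and 9.05 on the untreated HEL arrays and 10.30, 10.26 and 10.37 with ITF2357. All 3 treated arrays lay more than 1 log2 unit above all untreated ones. The rise was 1.16 ± 0.0662 (SE), or 2.24-fold with a 95% interval of 2.03 to 2.47 (limma adjusted p = 1.33e-08). In UKE1 its levels went from 9.79, 9.68 and 9.61 to 10.79, 10.82 and 10.79, again without overlap. That rise was 1.11 ± 0.0662, or 2.16-fold with an interval of 1.95 to 2.38 (adjusted p = 1.51e-08). Of the 18417 genes, 257 had a larger increase in HEL (1.4%) and 296 in UKE1 (1.61%).

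HDAC11, the fatty deacylase, showed the largest rise of the 5 in HEL. Its untreated HEL arrays read 6.52, 6.45 and 6.38 and the treated ones 7.81, 7.61 and 8.02, the widest spread of any group for these genes (SD 0.201, n = 3). The change was 1.36 ± 0.0964, or 2.56-fold with an interval of 2.22 to 2.96 (limma adjusted p = 8.56e-08), and 137 genes had a larger increase. In UKE1 the arrays moved from 5.44, 5.35 and 5.22 to 6.56, 6.48 and 6.35, so that the lowest treated array stood above the highest untreated one. The untreated UKE1 values lay below every array median (6.41 to 6.497). Without detection calls, how much of them is background cannot be judged. The change there was 1.13 ± 0.0964, 2.19-fold with an interval of 1.89 to 2.52 (adjusted p = 3.99e-07). Across all genes, 2.37% rose at least 2-fold in HEL, 2.19% in UKE1 and 0.896% in both; HDAC3 and HDAC11 were among the last.

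HDAC1, a catalytic subunit shared by several corepressor complexes, rose by less. The HEL arrays went from 11.91, 11.83 and 11.74 to 12.24, 12.29 and 12.30, a gap between the groups with small spread on the treated side. The change was 0.44 ± 0.0614, 1.36-fold with an interval of 1.24 to 1.49 (limma adjusted p = 3.78e-05). In UKE1 the levels went from 11.85, 11.72 and 11.81 to 12.04, 12.05 and 12.03, also without overlap. This was 0.25 ± 0.0614, 1.19-fold, with a log2 interval of 0.11 to 0.38 (adjusted p = 0.00449). In HEL 12% of genes and in UKE1 20.1% had a larger increase, so the change of HDAC1 was not among the larger ones. Counting HDAC3, HDAC11 and HDAC1, 3 of 5 members rose in both lines, as did 14% of all genes.

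HDAC2, the paralog of HDAC1, went the other way. In HEL the untreated arrays read 10.86, 10.70 and 10.69 and the treated ones 10.65, 10.64 and 10.56. The groups did not overlap, but the change of -0.13 ± 0.0638 had an interval of -0.27 to 0.01 and did not pass (limma adjusted p = 0.122). With a trended and robust variance estimate the same change passed narrowly (adjusted p = 0.0486), and it was -0.08 after quantile normalization and without untreated replicate 1. In UKE1 the arrays went from 10.56, 10.53 and 10.51 to 10.35, 10.25 and 10.25, a fall of 0.25 ± 0.0638 on the log2 scale to 1.19-fold less (adjusted p = 0.00474). The difference between HDAC1 and HDAC2 on the same array, set to a mean of 0 in untreated HEL, lay between -0.03 and 0.05 there and between 0.50 and 0.66 with ITF2357. In UKE1 it lay between 0.11 and 0.22 without and between 0.61 and 0.72 with the drug. The paralogs thus changed unequally on every treated array of both lines.

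HDAC8, the SMC3 deacetylase, fell in both lines, more clearly in UKE1. Its UKE1 arrays read 9.17, 9.15 and 9.13 without drug and 8.67, 8.75 and 8.80 with it. The fall was 0.41 ± 0.0664 on the log2 scale, or 1.33-fold, and the change had a log2 interval of -0.55 to -0.27 (limma adjusted p = 0.000151). In HEL the levels were 8.35, 8.22 and 8.14 against 8.06, 7.97 and 8.09, a narrow gap of 0.06 between the groups. That change was -0.20 ± 0.0664, 1.15-fold lower (adjusted p = 0.024). The HEL call did not hold without untreated replicate 1 (adjusted p = 0.104), without treated replicate 2 (adjusted p = 0.0908), after median centring (adjusted p = 0.0507) or in a fit of the 6 HEL arrays alone (adjusted p = 0.0675), while the change stayed below 0 in all 20 alternatives. Across all genes 12.9% fell in both lines.

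**Figure D2:**
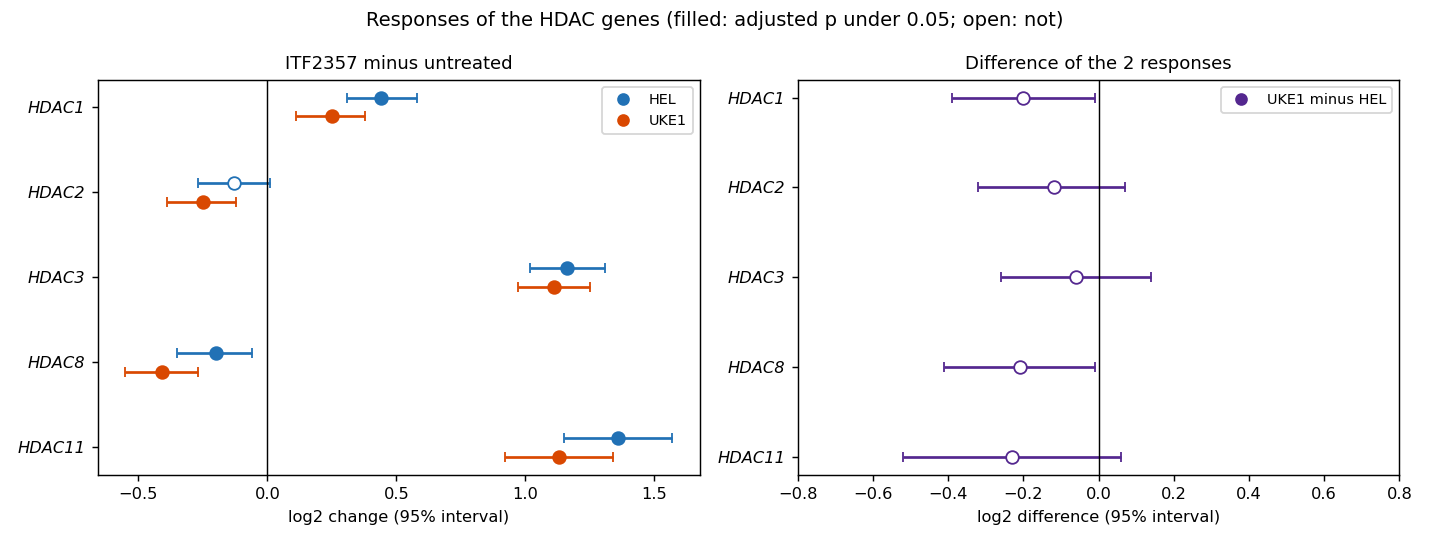
Left, log2 change with ITF2357 (x axis) of each HDAC gene in HEL and UKE1; right, the difference between the responses. Points are limma estimates with 95% intervals, filled where the adjusted p was under 0.05. HDAC3 and HDAC11 lie above 1 in both lines, and no point of the right panel is filled.

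Whether the lines responded differently was tested by the interaction, UKE1 response minus HEL response. None of the 5 members passed, against 23.9% of all genes (10.1% more positive and 13.8% more negative in UKE1). At an unadjusted limma p under 0.05 there were 2 of 5, against 35% of all genes, and with the trended and robust variance estimate 1 of 5 passed. The difference was -0.06 for HDAC3, with an interval of -0.26 to 0.14 (adjusted p = 0.718). For HDAC11 it was -0.23, with a wider interval of -0.52 to 0.06 (adjusted p = 0.257), and without treated HEL replicate 3, the highest array, it was -0.13 (adjusted p = 0.517). HDAC2 gave -0.12, from -0.32 to 0.07 (adjusted p = 0.373). The unadjusted p-values under 0.05 belonged to HDAC1, at -0.20 with an interval of -0.39 to -0.01 (unadjusted p = 0.0392, adjusted p = 0.12), and to HDAC8, at -0.21 with an interval of -0.41 to -0.01 (unadjusted p = 0.0449, adjusted p = 0.132). HDAC1 was the member called under the other variance estimate (adjusted p = 0.024). Over all genes the differences were more positive in UKE1 for 1854 and more negative for 2541 genes as deposited, and for 1370 and 3102 after median centring.

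**Figure D3:**
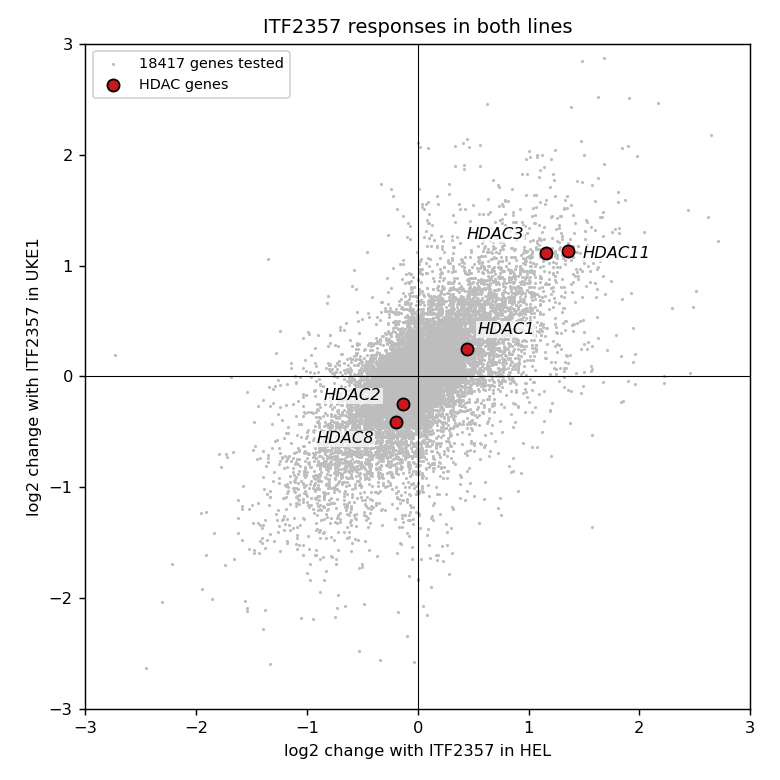
Log2 change with ITF2357 in HEL (x axis) and in UKE1 (y axis) for 18417 genes (grey) and the 5 HDAC genes (red). HDAC3 (1.16 and 1.11) and HDAC11 (1.36 and 1.13) lie in the sparse upper right, HDAC1 lies inside the cloud above 0, and HDAC2 and HDAC8 lie inside it below 0.

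Without drug, the lines differed in 4 of the 5 genes, with 2 higher and 2 lower in UKE1, where 67.7% of all genes differed (33.3% higher and 34.4% lower). The arrays of the lines did not overlap for the same 4 genes, nor for 69.4% of all genes. UKE1 had more HDAC8 by 0.91 ± 0.0664 (SE; 1.88-fold, limma adjusted p = 2.27e-08) and more HDAC3 by 0.54 ± 0.0662 (1.46-fold, adjusted p = 5.14e-06). HDAC11 was lower in UKE1, at 5.34 ± 0.11 against 6.45 ± 0.0705 in HEL (SD, n = 3), a difference of -1.12 ± 0.0964 (2.17-fold, adjusted p = 1.38e-07). HDAC2 was lower by a small amount, -0.21 ± 0.0638 (adjusted p = 0.0088), a difference that shrank to -0.03 after quantile normalization (adjusted p = 0.664). HDAC1 differed by -0.04, with an interval of -0.17 to 0.10 and overlapping arrays (adjusted p = 0.623). Its direction changed with the scaling, to 0.16 after quantile normalization (adjusted p = 0.0264) and 0.01 after median centring.

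With ITF2357 in both lines, all 5 genes differed between UKE1 and HEL, as did 68% of all genes, of which 34% were higher and 34% lower. The arrays of the lines did not overlap for 5 of 5 members, nor for 72.3% of all genes. This comparison uses the treated arrays of the drug comparisons again. HDAC8 (0.70 ± 0.0664) and HDAC3 (0.49 ± 0.0662) were higher in UKE1, with limma adjusted p-values of 3.96e-07 and 1.60e-05. HDAC11 (-1.35 ± 0.0964), HDAC2 (-0.34 ± 0.0638) and HDAC1 (-0.23 ± 0.0614) were lower, with adjusted p-values of 1.92e-08, 0.000334 and 0.00387. After quantile normalization HDAC1 came to -0.04 (adjusted p = 0.614) and HDAC2 to -0.18 (adjusted p = 0.0153).

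**Figure D4:**
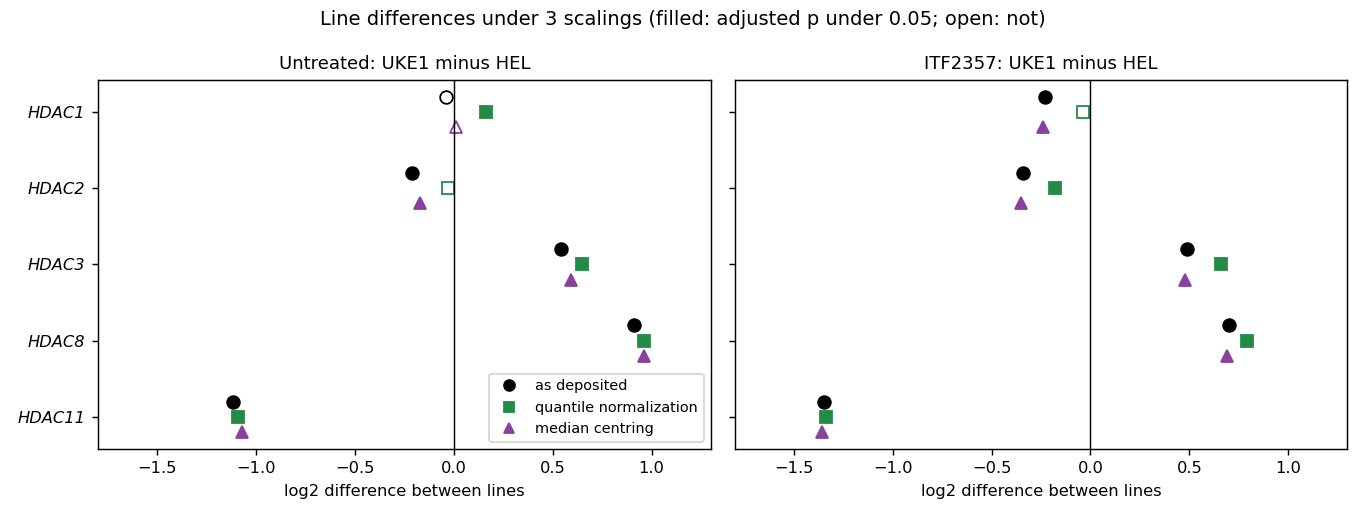
Log2 difference between UKE1 and HEL (x axis) for each HDAC gene without drug (left) and with ITF2357 (right), as deposited and after either of the other scalings. Filled symbols had an adjusted p under 0.05. HDAC3, HDAC8 and HDAC11 stay on the same side of 0 and filled under each scaling shown, whereas HDAC1 without drug crosses 0.

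The order of the 4 groups differed from gene to gene. HDAC3 rose from untreated HEL (9.15 ± 0.0844) through untreated UKE1 (9.69 ± 0.0908) and treated HEL (10.31 ± 0.0567) to treated UKE1 (10.80 ± 0.0178), and no neighbours in that order overlapped. HDAC8 ran from treated HEL (8.04 ± 0.0596) and untreated HEL (8.24 ± 0.106) to treated UKE1 (8.74 ± 0.063) and untreated UKE1 (9.15 ± 0.0206), with all neighbours apart. The treated UKE1 cells thus still held more HDAC8 RNA than untreated HEL cells. For HDAC11 the treated UKE1 arrays (6.46 ± 0.102) overlapped with the untreated HEL arrays (6.45 ± 0.0705), with untreated UKE1 below both and treated HEL (7.81 ± 0.201) above both. HDAC1 had overlapping untreated groups at the bottom, then treated UKE1 (12.04 ± 0.00799) and treated HEL (12.27 ± 0.0324). HDAC2 was lowest in treated UKE1 (10.28 ± 0.0614) and highest in untreated HEL (10.75 ± 0.0933), and the untreated UKE1 and treated HEL arrays in between met at 10.56.

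The lines also differ in markers of cell type. Of 15 erythroid marker genes 9 were measured. In untreated UKE1 8 of the 9 were lower than in HEL and 1, AHSP, was higher, and their mean level per array was 6.63 to 6.69 against 8.80 to 8.83 in HEL. Of 6 T-cell markers 5 were higher in UKE1, among them the CD3 chains CD3D, CD3E and CD3G, and 1, CD2, was lower (-0.81), with array means of 7.87 to 7.95 against 5.17 to 5.27. Of 8 megakaryocyte markers 6 were lower and 2 higher in UKE1, with a median difference of -0.90. The 2 higher were PPBP (10.52 against 6.48 in HEL) and VWF (7.74 against 5.16). Array means of 8.80 to 8.91 against 8.91 to 9.02 were close, though the single markers differed in both directions. Of 9 granulocyte and monocyte markers 4 were higher and 2 lower, and of 4 B-cell markers 3 were higher and 0 lower. Over all genes 33.3% were higher and 34.4% lower. The table gives no detection call, so no marker can be said to be absent. UKE1, labelled erythroleukemia like HEL, thus read lower for most erythroid markers and higher for most T-cell markers, and the part of cell type in the HDAC differences between lines was not tested. With ITF2357, 4 of 9 erythroid markers fell and 1 rose in HEL, and 1 fell and 0 rose in UKE1, where 42.4% of all genes changed in HEL and 44.3% in UKE1. Of the megakaryocyte markers 4 fell in HEL and 6 in UKE1, against 19.9% and 22.3% of all genes, and of the T-cell markers 1 fell in HEL and 4 in UKE1; the part of these shifts in the HDAC responses was not tested.

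The partners of the class I enzymes moved unevenly. Of 47 listed subunits of the SIN3, NuRD, CoREST, NCoR, MiDAC and MIER complexes 42 were measured. In HEL 26 rose, 6 fell and 10 were not called, with a median of 0.24; in UKE1 13 rose, 13 fell and 16 were not called, with a median of 0.03. Over all genes 22.6% rose and 19.9% fell in HEL, 22% rose and 22.3% fell in UKE1, and the medians were -0.013 and 0.011; several counts of single complexes lie near these shares. The same way in both lines, 13 rose and 6 fell, where 14% of all genes rose in both and 12.9% fell in both. The count of falls thus lies near the share over all genes. In the SIN3 complex 9 of 13 rose and 0 fell in HEL, and 7 rose and 1 fell in UKE1; with the trended and robust estimate 1 fell in HEL and 2 in UKE1. SAP130 (0.95 in HEL and 0.67 in UKE1), SUDS3 (0.65 and 0.59) and the scaffold SIN3B (0.37 and 0.38) rose in both. In NuRD, whose ATPase remodels nucleosomes, 5 of 12 rose and 3 fell in HEL, against 1 and 7 in UKE1. MBD3 (-0.73 and -0.74) and MTA2 (-0.58 and -0.70) fell, and GATAD2B (0.44 and 0.22) rose.

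In the CoREST complex, which pairs HDAC1 and HDAC2 with the demethylase KDM1A, 6 of 9 rose and 1 fell in HEL, and 3 rose and 3 fell in UKE1. RCOR2 (0.80 in HEL and 0.84 in UKE1), HMG20B (0.58 and 0.37) and RCOR1 (0.45 and 0.33) rose. Of the 4 measured NCoR subunits 4 rose in HEL, and 2 rose and 1 fell in UKE1; CORO2A (1.05 and 0.73) and GPS2 (0.29 and 0.57) rose in both lines, as HDAC3 did. Among 6 MiDAC and MIER genes 2 rose and 2 fell in HEL and 2 fell in UKE1, with MIER2 (-0.38 and -0.21) and MIER3 (-0.23 and -0.91) lower in both. The 2 falls in HEL became 1 after median centring and without any single HEL array other than untreated replicate 3, and the 2 in UKE1 became 1 without untreated replicate 3 or treated replicate 2. Of 11 cohesin and cohesin acetylation genes, the setting in which HDAC8 acts, 2 rose and 4 fell in HEL and 1 rose and 6 fell in UKE1. The share of all genes that rose was 22.6% in HEL and 22% in UKE1 and the share that fell 19.9% and 22.3%, so the HEL counts lie nearer to the shares over all genes. STAG1 (-1.09 and -1.46), STAG2 (-0.79 and -1.32) and SMC1A (-0.65 and -0.76) fell. ESCO2 (0.89 and 0.43) rose in both lines. SMC3, the subunit that HDAC8 deacetylates, rose by 0.24 in HEL (limma adjusted p = 0.0147) and gave 0.04 in UKE1, where it was not called.

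**Figure D5:**
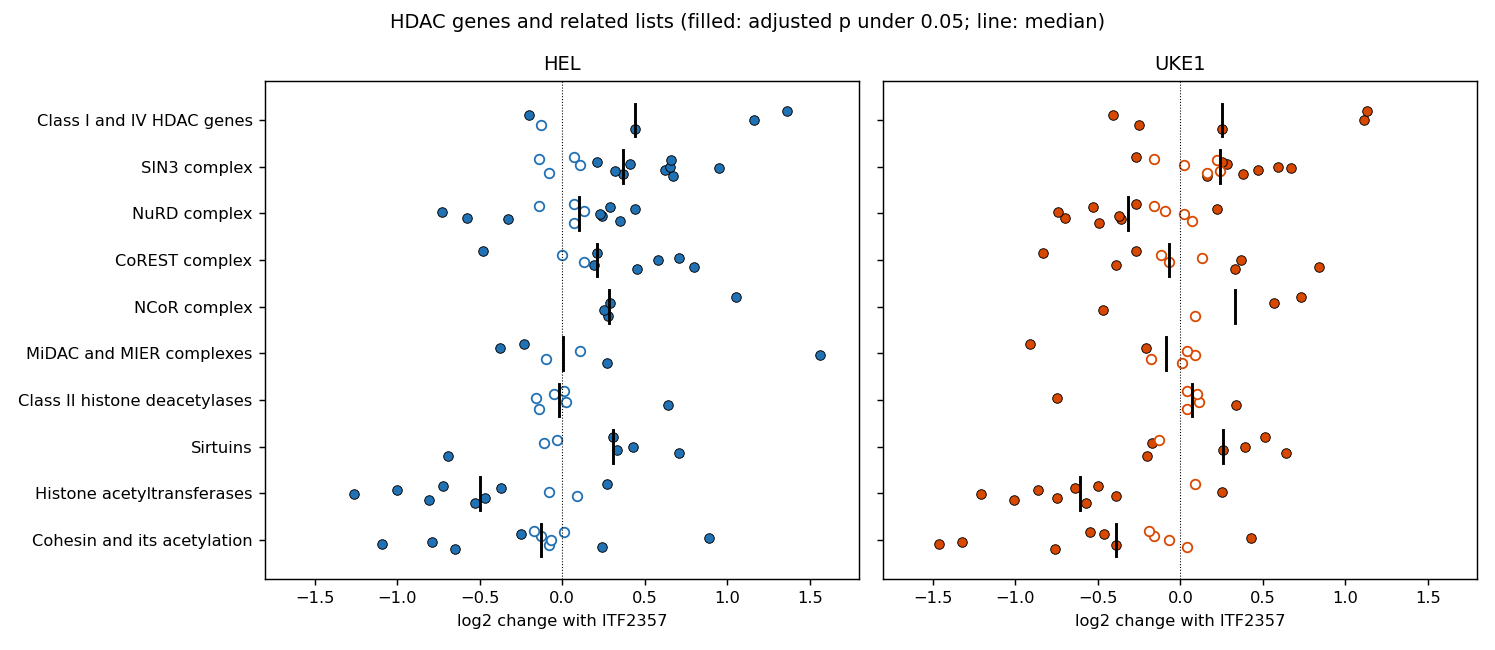
Log2 change with ITF2357 (x axis) in HEL (left) and UKE1 (right) for the class I and IV HDAC genes and each related list (rows). Points are genes, filled where the adjusted p was under 0.05, and vertical lines are medians. The HDAC genes spread over both sides of 0, most acetyltransferases lie below 0, and most class II deacetylases lie near 0 with open symbols.

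The other deacetylase classes and the opposing acetyltransferases are given for comparison, with no test between lists, and against 22.6% of all genes risen and 19.9% fallen in HEL and 22% and 22.3% in UKE1. Of the 6 class II genes 1, HDAC5 (0.64), rose in HEL and 0 fell. In UKE1 HDAC5 rose (0.34), 1 fell, HDAC7 (-0.75), and 4 were not called. Their median was -0.02 in HEL and 0.07 in UKE1, beside 0.44 and 0.25 for class I and IV. The sirtuin median was 0.31 in HEL and 0.26 in UKE1, so an upward median was not particular to class I and IV. Among 7 sirtuins, the NAD-dependent deacetylases that ITF2357 does not target, 4 rose and 1 fell in HEL and 4 rose and 2 fell in UKE1, with SIRT2 (0.71 and 0.64), SIRT4 (0.43 and 0.39) and SIRT7 (0.31 and 0.51) up. The 2 falls in UKE1, of SIRT1 (limma adjusted p = 0.0329) and SIRT5 (adjusted p = 0.0435), became 0 after quantile normalization and with the replicate block, and 0 or 1 without any single UKE1 array. Of 10 acetyltransferases, which add the groups that deacetylases remove, 7 fell and 1 rose in HEL and 8 fell and 1 rose in UKE1. Among those that fell were KAT5 (-1.26 and -1.21), CREBBP (-0.81 and -1.01) and KAT6B (-0.86 in UKE1), and the list's median was -0.50 in HEL and -0.60 in UKE1.

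The nearest tested genes on either side of the members in the RefSeq gene order did not share the larger changes. Genes that were not tested were passed over. HDAC2-AS2 and RNU2-68P, which overlap HDAC2 and HDAC8, were not among the genes tested. RELL2 and DIAPH1, on either side of HDAC3, changed by 0.17 and 0.09 in HEL and by 0.15 and 0.14 in UKE1 (log2), of which only DIAPH1 in UKE1 passed (limma adjusted p = 0.0452). NUP210 and FBLN2 flank HDAC11; NUP210 gave -0.10 in HEL and fell by 0.35 in UKE1, and FBLN2 gave 0.09 and 0.02. LCK, beside HDAC1, gave -0.02 in HEL and fell by 0.81 in UKE1, while MARCKSL1 on the other side rose by 0.25 in HEL and gave 0.02 in UKE1. Beside HDAC8, CITED1 fell by 0.57 in HEL and gave -0.08 in UKE1, and PHKA1 gave 0.13 and -0.18. HS3ST5 and LINC02880, around HDAC2, fell by 0.43 and 0.30 in HEL and gave 0.14 and 0.01 in UKE1.

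The genes whose levels followed each member most closely over the 12 arrays were found by Pearson's r, which here mostly reflects the 4 group means. HDAC3 was followed by WRAP53 (r = 0.996), PAG1 (r = 0.994) and PLA2G15 (r = 0.994), of which PAG1 rose by 1.81 in HEL and 1.57 in UKE1. HDAC11 was followed by PEA15 (r = 0.995), GSTM4 (r = 0.993) and WDR54 (r = 0.993), all lower in untreated UKE1 than in HEL (-0.74, -0.72 and -0.41). HDAC8 ran with MAP7, PCK2 and ATE1 (r = 0.994 each), which were higher in untreated UKE1 by 0.69, 0.80 and 0.96. HDAC1 ran with LDAF1 (r = 0.985), WIPI2 (r = 0.982) and LPCAT3 (r = 0.980), and HDAC2 with MEMO1 (r = 0.984), SPG21 (r = 0.977) and ELOC (r = 0.975). No member was among the 3 closest genes of another.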

How the data were processed

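RNA was profiled on 12 Affymetrix Gene ST arrays, from 100 ng of total RNA per array. The authors summarised the scans by RMA in Affymetrix Expression Console, per the submitters' processing notes; no version or genome build is named in the labels. The deposited table was read as log2 from their range (1.256 to 14.36, array medians 6.41 to 6.497), since no label states the base. Of 33297 rows, GEO's platform annotation gave 19460 a single symbol, 1754 several and 12083 none; the row with the highest mean was kept per symbol, which left 18417 genes. Group means of all 12 arrays were compared in limma 3.58.1 under R 4.3.3, by lmFit then eBayes with 8 residual degrees of freedom, two-sided, with Benjamini-Hochberg adjustment over all genes; intervals are 95% and the fit was tested on simulated data. The number of arrays limits the precision. Promoter windows came from RefSeq (GRCh38.p14), which held all 5 members and served for gene order.

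The members and lists were chosen with earlier results of these data known. Named were all 5 members, up to 3 genes of each list called the same way in both lines (smallest larger adjusted p; otherwise the 1 gene with the smallest), and the 3 genes of highest r to each member. AHSP, the CD3 chains, CD2, PPBP, VWF, SMC3, ESCO2, HDAC7, SIRT1, SIRT5 and neighbouring genes were named by role, direction or position, after their values were seen. Alternatives were other scalings, filters, rows, fits, a replicate block and leaving out each array. Whether replicate numbers pair the arrays was checked by correlating deviations from group means: same-numbered arrays gave -0.09 to 0.12, so the numbers were not taken as pairs.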

Additional observations from a re-analysis of the deposited data

Results flagged for a closer look

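Among the 28 genes set by the naming rule for the members and lists, 6 list genes responded differently in the lines by the interaction test, a test that 23.9% of all genes passed, and no HDAC member of class I or IV did. The difference between responses, UKE1 minus HEL, was -0.28 for SAP130 (limma adjusted p = 0.0311), 0.28 for GPS2 (adjusted p = 0.0361) and -0.67 for MIER3 (adjusted p = 0.000783). HDAC5 gave -0.30 (adjusted p = 0.0401), and the cohesin subunits STAG1 and STAG2 gave -0.36 (adjusted p = 0.00873) and -0.53 (adjusted p = 0.00139). The rule took list genes that changed the same way in both lines, so the shared direction of these 6 was set by the choice. List genes called in a single line were passed over, so the count cannot be set against the share over all genes. Of all 42 measured complex subunits, 1 passed as more positive and 14 as more negative in UKE1, against 10.1% and 13.8% of all genes. With 3 arrays per group no outlier test was made.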

How the results depend on the processing

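Of 490 values of the 5 members over up to 20 alternatives, 477 kept their direction and their side of the threshold. With the same sign 8 crossed the threshold, and 5 changed sign. The HDAC1 difference between untreated lines after quantile normalization changed sign and also crossed the threshold (limma adjusted p = 0.0264). HDAC3, HDAC11 and HDAC1 in both drug comparisons, and HDAC8 and HDAC2 in UKE1, kept direction and side in every alternative run. HDAC11 was not tested among genes above the median level, being dimmer. The number of members called for the difference of responses was 0 as reported and 1 with the trended and robust estimate (HDAC1), and stayed at 0 without any single array. Sign changes were those of HDAC3 in the difference of responses (0.01 after quantile normalization) and of HDAC1 between untreated lines: 0.16 after quantile normalization, 0.01 after median centring, and, leaving out 1 array, between -0.08 and 0.00, with 0.00 without HEL untreated replicate 1 and without UKE1 untreated replicate 2; the cause was not tested. Leaving out 1 array gave 3 to 4 called members in HEL. With a replicate block the counts of called members were 4 in HEL, 5 in UKE1, 0 for the difference, 4 between untreated and 5 between treated lines, no call of a member changed, and the genes called were 7590 in HEL and 7896 in UKE1. Between untreated lines 12471 genes differed, 7381 among genes above the median level and 19147 with every row tested, where fewer or more rows entered; between treated lines the counts were 12525, 7295 and 19169. Among list counts, the 2 sirtuins lower in UKE1 became 0 after quantile normalization and with the replicate block. RMA and signal over background limit small changes of dim genes, which cannot be judged without detection calls.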
